A study of Mus musculus with 12 samples.

Results

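Wild-type Zeb1 was compared with a GFP vector in the mouse lung cancer line 393P, whose labels call it epithelial and non-metastatic. The comparison takes the 3 libraries labelled Zeb1_WT (WT below) and the 3 labelled GFP_Vector (vector below), which are 6 of the 12 libraries of the series, and covers the 12027 tested genes of the 12208 in the deposited table. Both lines were kept in serum-containing RPMI with no treatment. The other 6 libraries come from lines carrying the Zeb1 forms labelled Zeb1_deficient and Zeb1_mimetic, read here as acetylation mutants because the series title is about acetylation of this protein. They share the estimate of spread in the model and enter a comparison with WT at the end.

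Each form of Zeb1 is represented by 1 line, so the form and other differences between lines cannot be told apart. The labels do not say whether a line is a clone or a pool, nor which promoter drives Zeb1. They number 3 biological replicates per line, whereas the design text of the series mentions 2 replicates, and n = 3 is used here. No source used here says how separate the 3 cultures were, so the spread behind each p-value, that between libraries, may be technical. RNA was counted by 3' tag sequencing, in which about 1 fragment near the end of each transcript is read whatever its length, so levels are set side by side between genes without dividing by length. Depth ran from 33301106 to 39029599 counts in vector and from 28402017 to 35773638 in WT. The smallest count of any listed gene is 1, so genes with no counts in some library are not analysed here.

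ZEB1 is a zinc-finger transcription factor of the epithelial-mesenchymal transition, the change in which cells give up junctions and apical-basal polarity and take on motile, matrix-producing features. It binds E-box sequences of the form CACCTG, recruits corepressors, and is best known for repressing E-cadherin and other junction and polarity genes. In lung cancer models it is studied as a driver of invasion and metastasis.

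Levels below are counts per 1000000 counts of a TMM-scaled library (CPM), given for libraries 1, 2 and 3 or as mean ± SD (n = 3). "Rose" and "fell" are used of genes with a Benjamini-Hochberg adjusted p under 0.05 in edgeR's quasi-likelihood test, WT against vector. Zeb1 stood at 30.1, 34.4 and 29.3 CPM in vector and at 245, 250 and 236 CPM in WT, 7.81-fold higher (log2 fold change 2.97, SE 0.06, edgeR adjusted p = 1.1e-19). The groups do not overlap, so the labels and the Zeb1 level go together. These counts mix the resident gene with any countable part of the introduced transcript. Of 8 epithelial markers 7 were tested and 6 fell. Their summed level was 9069.8 to 10495 CPM in vector and 4168 to 4322 in WT, and most of what remained in WT was the keratins Krt8 (1587 ± 37 CPM) and Krt18 (1846 ± 39 CPM). The WT line thus kept high keratin levels. Markers of other cell types were mostly outside the table. The 3 fibroblast markers tested summed to at most 2.48 CPM in any of the 6 libraries and the 3 endothelial ones to at most 4.48. The 2 immune markers tested, mostly Cd14, summed to 51.7 to 65.5 CPM in vector and 26.8 to 28.3 in WT.

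Wild-type Zeb1 went with many small changes and with a smaller set of large ones, in which falls outnumbered rises. Of all tested genes, 31% rose (3725) and 33.6% fell (4044), and the median called change was 1.36-fold. Changes of at least 2-fold were called for 583 genes higher in WT (4.85%) and 903 lower (7.51%). At 10-fold and above the counts were 65 (0.54%) and 116 (0.964%). The excess of falls at 2-fold and above varied with level. Where the higher line averaged 20 to 100 CPM, 223 of 4990 genes fell at least 2-fold and 101 rose at least 2-fold. Where it averaged 1 to 5 CPM, the counts were 240 and 217 of 1162, and under 1 CPM they were 152 and 80 of 1007. The libraries of the 2 lines did not overlap for 33.2% of tested genes with WT higher and for 34.8% with WT lower. Because 64.6% of genes were called, a count of members of a list is read below against 31% and 33.6%.

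Several genes rose from near the detection floor. The aminopeptidase Anpep (CD13, chromosome 7, 79821803 to 79861059, GRCm38) had 0.121, 0.154 and 0.158 CPM in vector and 17, 18.9 and 16.4 in WT, 117-fold higher (log2 fold change 6.87, SE 0.22, edgeR adjusted p = 3.73e-16). The Cdc42 and Rac GTPase-activating gene Arhgap31 had 0.242, 0.123 and 0.238 CPM in vector and 13.1, 15.3 and 13.3 in WT, 67.3-fold higher (log2 fold change 6.07, SE 0.2, edgeR adjusted p = 3.93e-16). For both genes every WT library was far above every vector library. The leptin receptor Lepr (37.4-fold), the dystrophin-complex gene Sspn (36.4-fold), the Src-family kinase Fyn (25.6-fold), the thyroid hormone receptor Thrb (20.3-fold), the natriuretic peptide receptor Npr2 (11.8-fold) and the fatty acid carrier Fabp5 (14.7-fold) also rose. Their vector means were 0.472 to 2.62 CPM and their WT means 10.3 to 38.7.

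**Figure D1:**
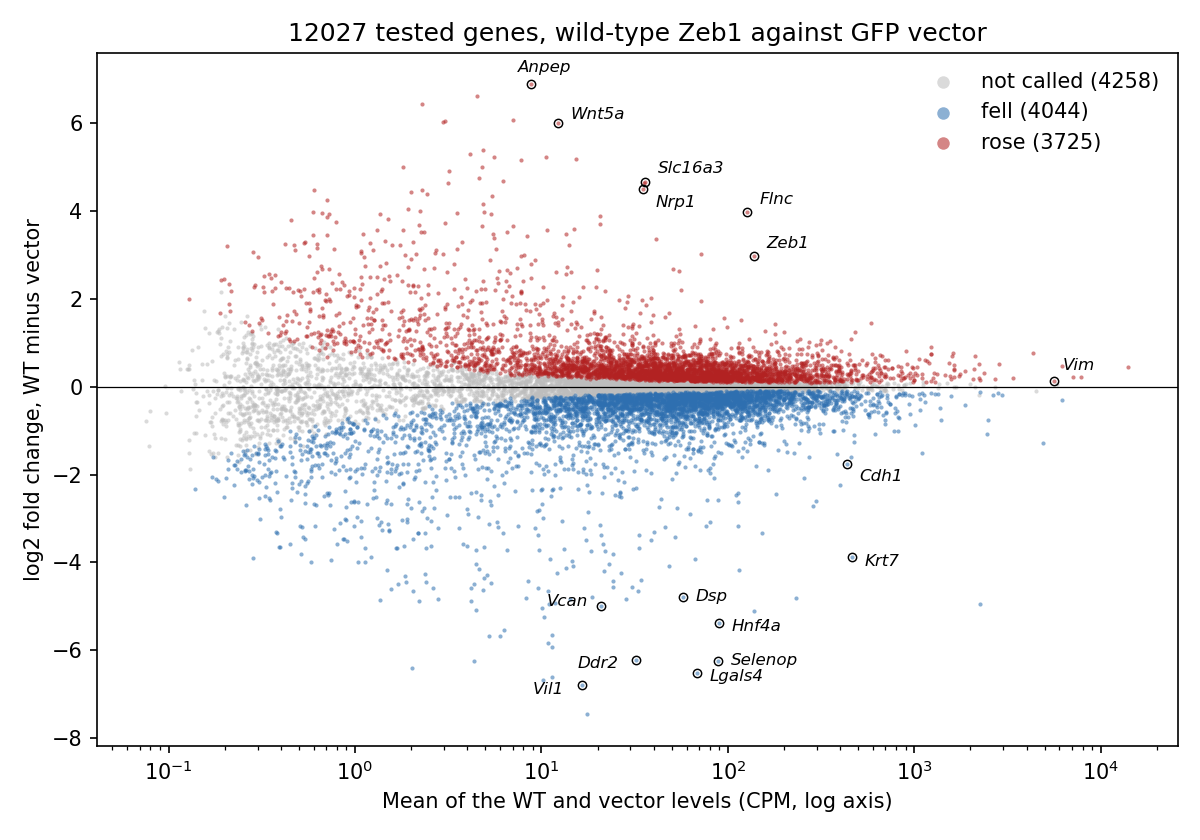
Each point is 1 of the 12027 tested genes, with the mean of the WT and vector levels in CPM on a log axis and the log2 fold change of WT minus vector on the vertical axis. Red points rose (3725), blue points fell (4044) and grey points were not called (4258), and the abundant genes with large changes, such as Krt7 at -3.88, lie mostly below 0.

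Cell junction genes fell as a group, and the tight junction list had the lowest median of the junction and polarity lists. Of 23 tight junction genes tested, 16 fell and 4 rose, with a median log2 fold change of -0.79 against -0.01 for all tested genes. Of 10 desmosome and plakin genes 7 fell and 0 rose (median -0.54), with the 3 others not called by edgeR. Of 18 adherens junction and cadherin genes 12 fell and 2 rose (median -0.39), and of 21 apical-basal polarity genes 12 fell and 5 rose (median -0.23). RNA from many cells was measured together, so a lower level in every cell and loss from some of the cells cannot be told apart in any of these results.

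ZEB1's binding sequence stands in the promoters of several of these genes. The stretches below are shown because they belong to the junction and polarity genes with the largest falls whose RefSeq promoter window, 250 bases before to 50 after a start site (GRCm38.p6), holds CACCTG or its reverse complement CAGGTG. Both spellings were searched in every window, which covers both strands, and capitals mark them. Cdh1 was also to be shown, but it has no window in the RefSeq set used, so its promoter was not searched. The first 3 genes printed follow the rule set for printing, and Ocln and Lsr were added after their values were seen. In Marveld2 and Dsp the sequence lies within the 50 bases after the start, and only 26 bases around it are given. In the others it lies upstream, and the 250 bases before the start are given. Other starts of these genes, where present, are not shown. The 2 Prkcz starts are numbered by chromosome position, so on its minus strand the first lies downstream of the second. Each stretch is written 5' to 3' along the gene's own strand, which is the plus strand for Dsp and the minus strand for the rest.

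Marveld2, chr13:100616913-100616938: ggcggccgcgCAGGTGagtggggccg
Dsp, chr13:38151287-38151312: agaagccgacCAGGTGtggcctgggc
Prkcz, first start, chr4:155344750-155344999: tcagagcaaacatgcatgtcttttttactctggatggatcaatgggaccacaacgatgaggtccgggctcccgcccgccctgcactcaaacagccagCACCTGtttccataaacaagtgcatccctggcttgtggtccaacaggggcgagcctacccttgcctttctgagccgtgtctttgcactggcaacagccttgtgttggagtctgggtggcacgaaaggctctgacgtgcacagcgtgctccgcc
Prkcz, second start, chr4:155361429-155361678: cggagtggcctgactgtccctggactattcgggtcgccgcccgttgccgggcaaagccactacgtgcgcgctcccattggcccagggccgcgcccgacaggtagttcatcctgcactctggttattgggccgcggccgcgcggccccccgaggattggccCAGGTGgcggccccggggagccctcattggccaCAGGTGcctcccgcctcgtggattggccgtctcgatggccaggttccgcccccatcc
Ocln, chr13:100552499-100552748: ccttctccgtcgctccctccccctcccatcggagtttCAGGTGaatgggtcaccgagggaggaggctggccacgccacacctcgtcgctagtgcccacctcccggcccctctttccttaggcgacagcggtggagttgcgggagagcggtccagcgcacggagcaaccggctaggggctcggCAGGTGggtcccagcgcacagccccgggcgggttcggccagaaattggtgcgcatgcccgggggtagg
Lsr, chr7:30973470-30973719: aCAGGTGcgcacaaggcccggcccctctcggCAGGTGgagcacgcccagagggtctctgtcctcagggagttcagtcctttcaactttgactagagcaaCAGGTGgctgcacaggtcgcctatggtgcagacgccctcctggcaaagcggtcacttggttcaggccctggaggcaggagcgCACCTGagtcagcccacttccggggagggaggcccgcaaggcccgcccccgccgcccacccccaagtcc

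Among the tight junction genes that fell, 13 of 16 had RefSeq windows, and 11 of their 17 windows (64.7%, 95% Wilson interval 41.3 to 82.7) held the E-box. Among the polarity genes that fell, 10 of 12 had windows, and 10 of 21 windows (47.6%, interval 28.3 to 67.6) held it. The share over all 32851 mouse windows of the same length was 20.2%. Windows of 1 gene can overlap, so they are not independent. Shares are read only where at least 80% of a set's genes have a window. The tested genes as a whole (78.3%) and all genes that fell at least 2-fold (70%) are under that, as are the genes that fell in the adherens junction list (7 of 12 with a window, the E-box in 1 of 10 windows) and in the desmosome list (2 of 7, the E-box in 3 of 3 windows), so checks of those sets are void. A match describes the letters in the window and is not evidence of binding.

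The genes shown fell by unequal amounts. Marveld2, tricellulin, which seals the corners where 3 cells meet, had 19.7, 18.4 and 20.5 CPM in vector and 0.347, 0.877 and 0.498 in WT, 32.8-fold lower (log2 fold change -5.03, SE 0.18, edgeR adjusted p = 2.3e-15). Occludin (Ocln), a membrane protein of the same strands, had 8.74, 10.1 and 8.64 CPM in vector and 0.867, 0.509 and 0.854 in WT, 12.4-fold lower (log2 fold change -3.64, SE 0.2, edgeR adjusted p = 1.84e-12). Lsr, the angulin that recruits tricellulin, had 45, 42.8 and 47.8 CPM in vector and 7.11, 7.95 and 8.65 in WT, 5.72-fold lower (log2 fold change -2.52, SE 0.09, edgeR adjusted p = 8.61e-16). In none of these 3 genes did a WT library reach the lowest vector library. The scaffold Tjp3 (3.99-fold), cingulin (Cgn, 3.07-fold) and the adhesion receptor Cxadr (3.09-fold) fell too. Of the 4 rises in this list Marveld1 is named only to complete the count. The largest ratio was that of the low claudin-9 (Cldn9), at 0.66 ± 0.069 CPM in vector and 1.88 ± 0.27 in WT, 2.84-fold (edgeR adjusted p = 0.000608). Claudin-12 (Cldn12) went from 41.5 ± 1.1 CPM in vector to 73.2 ± 0.98 in WT (edgeR adjusted p = 1.07e-11) and Cldnd1 from 17.3 ± 0.99 to 23.9 ± 0.63.

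Polarity genes included the atypical protein kinase C Prkcz, with 21, 23.9 and 24.5 CPM in vector and 1.49, 1.02 and 1.21 in WT, 18.8-fold lower (log2 fold change -4.23, SE 0.14, edgeR adjusted p = 7.51e-16). Llgl2, which opposes that kinase at the lateral membrane, had 18.1, 17.4 and 21.9 CPM in vector and 4.09, 3 and 3.28 in WT, 5.56-fold lower (log2 fold change -2.48, SE 0.14, edgeR adjusted p = 4.32e-12). The apical determinant Crb3 was low in both lines, at 2.45, 3.47 and 2.38 CPM in vector and 0.381, 0.226 and 0.249 in WT, and was called lower (edgeR adjusted p = 4.7e-09). All 3 are thus separated between the lines, with WT below vector. Dlg3 fell 1.7-fold. In the other direction, the polarity kinase Mark3 rose from 78.4 ± 1.9 to 95.8 ± 2.9 CPM (1.22-fold) and the Par6 form Pard6a from 7.64 ± 0.64 to 9.81 ± 0.56 (1.28-fold), while its relative Pard6b fell 4.18-fold. The other 3 rises were Cdc42, Mpp5 and the low Pard6g.

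Desmosomes couple keratin filaments between cells, and the genes named here fell unevenly. The desmosomal cadherins of the list (Dsc2, Dsc3, Dsg2 and Dsg3) were not among the genes counted, so they are not analysed here. Desmoplakin (Dsp) had 109.8, 117 and 106 CPM in vector and 3.88, 4.27 and 3.77 in WT, 27.7-fold lower. Plakoglobin (Jup), shared by desmosomes and adherens junctions, had 219, 216 and 226 CPM in vector and 63.6, 61 and 63.5 in WT, 3.52-fold lower (log2 fold change -1.81, SE 0.06, edgeR adjusted p = 1.22e-15). Perp had 126, 121 and 132 CPM in vector and 32.6, 35.7 and 37.7 in WT, 3.57-fold lower (log2 fold change -1.84, SE 0.06, edgeR adjusted p = 3.93e-16). The fall in desmoplakin was the deepest of the 10 genes. Other plakins moved less: periplakin (Ppl) fell 1.82-fold, dystonin (Dst) 1.52-fold and envoplakin (Evpl) 1.39-fold.

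In the adherens junction list the liver-intestine cadherin Cdh17 fell from 130.5, 132 and 132 CPM in vector to 22.5, 22 and 21 in WT, 6.02-fold (log2 fold change -2.59, SE 0.06, edgeR adjusted p = 1.63e-18), a larger ratio than that of Cdh1 (3.38-fold). Nectin2 fell 1.78-fold and alpha-catenin (Ctnna1) 1.65-fold. N-cadherin (Cdh2) had 56.2, 54.3 and 50.6 CPM in vector and 73.4, 77 and 76.8 in WT, 1.41-fold higher (log2 fold change 0.5, SE 0.06, edgeR adjusted p = 4.06e-07). The cadherin levels therefore approached each other without crossing: Cdh1 still stood at 198 ± 4.4 CPM in WT and Cdh2 at 75.7 ± 2. The other rise of this list was Nectin1, which had 1 count in a vector library.

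**Figure D2:**
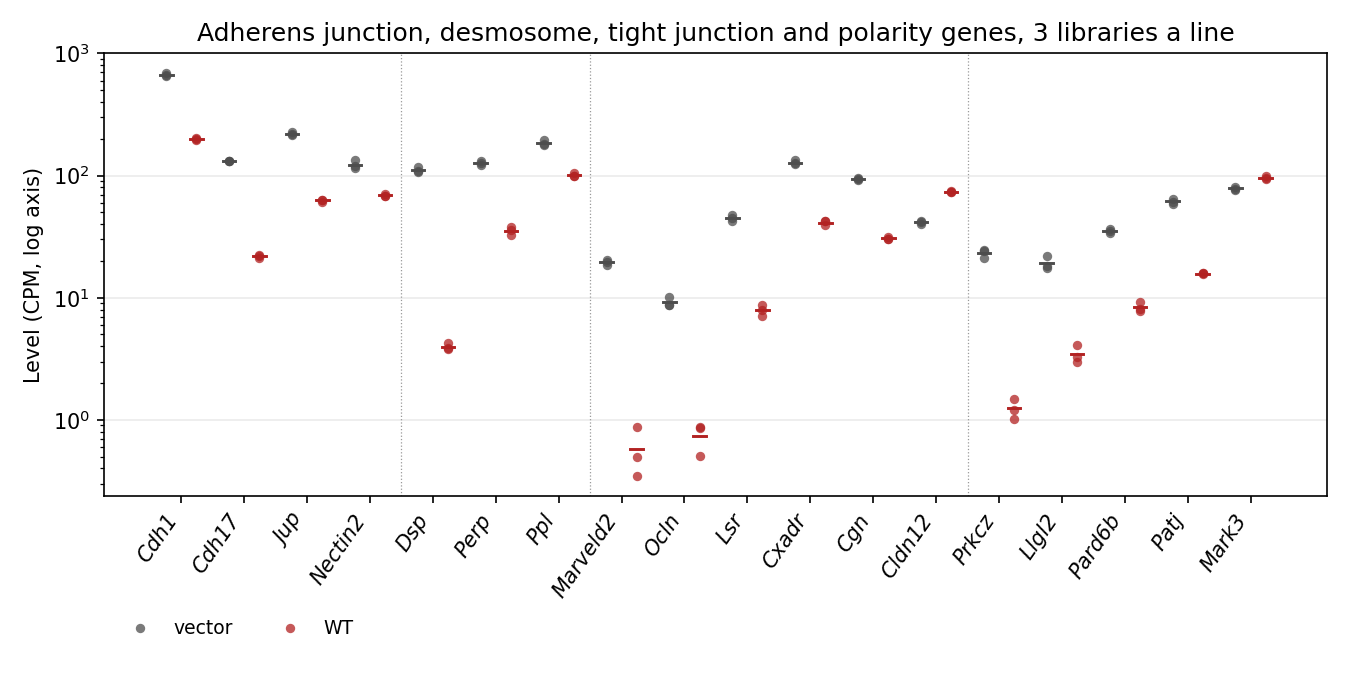
Level in CPM on a log axis of 18 genes in the 3 vector libraries (grey) and the 3 WT libraries (red), with a bar at each mean; dotted lines part adherens junction, desmosome, tight junction and polarity genes. WT lies below vector for all but Cldn12 and Mark3, and the gap is widest for Marveld2, Dsp and Prkcz.

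Regulators of the epithelial state did not move as a group. Of 19 epithelial transcription factors tested 7 fell (36.8%) and 4 rose (21.1%), against 33.6% and 31% of all tested genes. Hnf4a, a nuclear receptor that specifies liver and gut epithelium (chromosome 2, 163506808 to 163572910), had 171, 181 and 172 CPM in vector and 4.09, 4.5 and 3.99 in WT, 41.4-fold lower (log2 fold change -5.37, SE 0.08, edgeR adjusted p = 1.11e-21). The ETS factor Elf3 had 15.2, 17.9 and 21 CPM in vector and 2.6, 2.18 and 2.07 in WT, 7.92-fold lower (log2 fold change -2.99, SE 0.15, edgeR adjusted p = 4.59e-13). Both genes left vector and WT without overlap, while others moved little or the other way. Klf5 fell 1.7-fold, whereas Klf4 rose 1.29-fold and Gata6 1.24-fold; the 2 other rises were Grhl1 and Sox2. Grhl2, which represses Zeb1 in epithelia, was at 1.94 ± 0.28 CPM in vector and 1.56 ± 0.36 in WT and was not called. Foxa2 was at 76.4 ± 5.9 and 86.2 ± 4.1 CPM and was just outside the threshold (edgeR adjusted p = 0.0536), but was called under 9 of the alternative settings.

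Splicing regulators that set epithelial exon use were a mixed group, with 7 of 22 lower and 7 higher. Esrp2 had 50.8, 49.2 and 48.4 CPM in vector and 13.6, 12.7 and 12.7 in WT, 3.8-fold lower (log2 fold change -1.93, SE 0.09, edgeR adjusted p = 7.07e-14). Rbm47, another factor of epithelial splicing, fell from 74.3 ± 6.1 to 38.2 ± 0.94 CPM (1.95-fold) and Khdrbs3 fell 1.48-fold. The general factor Srsf1 was not called, at 611 ± 2.3 and 579 ± 4.9 CPM.

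Genes of apical trafficking and of surface protease control fell in 17 of 25 and rose in 3, with a median of -0.49. The tetraspanin Tspan1 had 51.3, 54.2 and 60.1 CPM in vector and 2.08, 2.21 and 1.42 in WT, 28.7-fold lower (log2 fold change -4.84, SE 0.13, edgeR adjusted p = 3.1e-17). Rab17, a small GTPase of polarised epithelial transport, had 8.47, 9.32 and 10.3 CPM in vector and 0.347, 0.453 and 0.32 in WT, 24.5-fold lower (log2 fold change -4.62, SE 0.23, edgeR adjusted p = 4.92e-13). The unconventional myosin Myo5c, which moves secretory vesicles, had 316, 308 and 289.9 CPM in vector and 54.9, 58.7 and 54.7 in WT, 5.43-fold lower (log2 fold change -2.44, SE 0.05, edgeR adjusted p = 8.77e-20). All 3 separated fully, and Myo5c did so at the highest level. The surface protein Cd24a rose 1.21-fold, from 233 ± 0.76 to 282 ± 1.4 CPM, as did Mal2 and Sytl2, a count of 3 that fell to 1 without WT replicate 3. The tetraspanin Cd9 was not called at 666 ± 5.7 and 676 ± 7.2 CPM.

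Genes of intestinal and brush-border differentiation, which the vector line expressed although it derives from lung, had the lowest median of all lists. Of 23 tested 19 fell, 14 of them at least 2-fold, and 0 rose, with 4 not called by edgeR, and the median was -2.36. The list does not hold every such gene. It leaves out the surface aminopeptidase Anpep, which rose (above), and Calml4 and Myo15b, which are described below. Where at least 5 CPM in 3 libraries was required, fewer members were tested and 11 fell. Villin (Vil1), which bundles actin in microvilli, had 30.9, 32.2 and 35.2 CPM in vector and 0.485, 0.198 and 0.214 in WT, 110.3-fold lower (log2 fold change -6.79, SE 0.22, edgeR adjusted p = 4.41e-16). The other bundler of microvilli, Pls1, had 46.4, 48.7 and 44.2 CPM in vector and 2.32, 1.39 and 2.31 in WT, 23.5-fold lower (log2 fold change -4.55, SE 0.13, edgeR adjusted p = 6.01e-17). Calml4, a light chain of a brush-border myosin, had 22.7, 23.6 and 22.8 CPM in vector and 0.624, 0.566 and 1.1 in WT, 30.5-fold lower (log2 fold change -4.93, SE 0.2, edgeR adjusted p = 2.07e-14). These 3 structural genes of the brush border were thus at or below 2.32 CPM in every WT library. Galectin-2 (Lgals2) had 93.1, 84.9 and 94.7 CPM in vector and 5.96, 5.18 and 4.98 in WT, 16.9-fold lower (log2 fold change -4.08, SE 0.09, edgeR adjusted p = 9.84e-19). Myo15b had 1198, 1084 and 1319 counts in the vector libraries and 7, 3 and 8 in WT, too few in WT for a ratio. The intestinal factor Cdx2 fell only 1.33-fold, from 57.8 ± 4.8 to 43.6 ± 1.5 CPM, and Eps8 was not called at 350.4 ± 5.9 and 338 ± 1.4 CPM.

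Markers of lung epithelium were few. Of 22 alveolar and airway genes listed 7 were tested, and 1 rose and 1 fell; the surfactant and club cell genes of the list are not analysed here. In that list the water channel Aqp5 rose from 5.44 ± 0.4 to 34.1 ± 2.9 CPM (6.28-fold, edgeR adjusted p = 1.01e-16) and the lipid transporter Abca3 fell from 70.4 ± 3 to 54.9 ± 2.2.

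Genes of the actin cytoskeleton changed in both directions, some of them by more than 10-fold. Of 59 actin, myosin and contractility genes 28 rose and 22 fell, with a median of 0.04. Filamin C (Flnc), an actin crosslinker of muscle, had 15.5, 15.4 and 14.8 CPM in vector and 241, 234 and 239 in WT, 15.6-fold higher (log2 fold change 3.96, SE 0.09, edgeR adjusted p = 4.99e-19). The formin Fhod3, which builds actin filaments, had 0.998, 0.246 and 0.713 CPM in vector and 10, 10.2 and 9.93 in WT, 15.3-fold higher (log2 fold change 3.93, SE 0.22, edgeR adjusted p = 2.96e-12). Both rises put every WT library above every vector library. The non-muscle myosin Myh14 had 41.5, 38.6 and 38.1 CPM in vector and 3.36, 3.45 and 3.1 in WT, 11.9-fold lower (log2 fold change -3.57, SE 0.11, edgeR adjusted p = 2.44e-16). Myosin light chain kinase (Mylk), which activates contraction, had 191, 201 and 170.3 CPM in vector and 34.9, 34.5 and 32.5 in WT, 5.52-fold lower (log2 fold change -2.47, SE 0.07, edgeR adjusted p = 1.93e-17). Myo1d fell 7.41-fold and Myo6 2.02-fold, while the main non-muscle myosin Myh9 was not called (2353 ± 130 and 2078 ± 87 CPM).

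Among 14 keratins and other intermediate filament genes 7 fell and 3 rose (Des, Lmnb2 and Vim). The simple keratins fell to different extents, Krt7 14.7-fold, Krt19 2.84-fold, Krt8 2.1-fold and Krt18 1.7-fold. Nestin (Nes) had 29.9, 29.1 and 27.8 CPM in vector and 7.98, 7.81 and 7.44 in WT, 3.73-fold lower (log2 fold change -1.9, SE 0.08, edgeR adjusted p = 1.35e-14). Krt13, a keratin of stratified mucosa outside that list, went the other way, with 0.877, 0.769 and 1.48 CPM in vector and 12.4, 13.3 and 10.6 in WT, 11.4-fold higher (log2 fold change 3.52, SE 0.18, edgeR adjusted p = 1.03e-12). Vimentin, the mesenchymal filament, was abundant in both lines, at 5289.8, 5023 and 5756 CPM in vector and 5995, 5654 and 5964 in WT. Its libraries overlap, and its 1.1-fold rise (edgeR adjusted p = 0.0151) was lost without vector replicate 2 (edgeR adjusted p = 0.0941), without WT replicate 1 (0.0541) and without WT replicate 3 (0.053).

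Genes of adhesion to the matrix changed in both directions. Of 27 integrins and integrin regulators 12 fell and 6 rose, and of 15 laminins and basement-membrane receptors 7 fell and 3 rose (Cd151, Lamb1 and Ntn4), shares of falls of 44.4% and 46.7% against 33.6% of all tested genes. Integrin beta 4 (Itgb4), the hemidesmosome subunit, had 187, 194 and 192 CPM in vector and 38.5, 34 and 34.4 in WT, 5.38-fold lower (log2 fold change -2.43, SE 0.05, edgeR adjusted p = 5.96e-19). Every WT library was far below every vector library. Laminin alpha 5 (Lama5) fell 2.01-fold, the collagen-binding integrin Itga2 2.77-fold and Itgb3 1.95-fold. The collagen receptor Ddr2, usually named as mesenchymal, had 60.8, 71.6 and 57.4 CPM in vector and 0.867, 0.849 and 0.819 in WT, 74.5-fold lower (log2 fold change -6.22, SE 0.13, edgeR adjusted p = 3.05e-19).

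The 2 kindlins measured, which activate integrins, moved in opposite directions. Kindlin-1 (Fermt1), the epithelial form, had 131, 144 and 139 CPM in vector and 16.4, 14.5 and 15.4 in WT, 8.98-fold lower (log2 fold change -3.17, SE 0.06, edgeR adjusted p = 1.33e-19). Kindlin-2 (Fermt2), the broadly expressed form, had 12.7, 15.3 and 14 CPM in vector and 54.6, 55.3 and 54.9 in WT, 3.92-fold higher (log2 fold change 1.97, SE 0.07, edgeR adjusted p = 9.4e-16). The fibronectin receptor subunit Itga5 rose from 12.2 ± 0.034 to 21.2 ± 1.9 CPM (1.74-fold) and the laminin-binding tetraspanin Cd151 from 149 ± 6.5 to 276 ± 6.8 (1.84-fold). Itgav was not called at 220.2 ± 13 and 235 ± 4.8 CPM.

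Matrix genes changed in both directions, at shares near those of all tested genes for collagens and proteases, and some of them by more than 10-fold. Collagen and crosslinking genes rose in 13 and fell in 13 of 39 (7 fell where at least 5 CPM was required, with fewer tested), matrix glycoproteins and proteoglycans rose in 16 and fell in 13 of 32, and pericellular proteases and inhibitors rose in 15 and fell in 14 of 40. Mesenchymal markers, which overlap these lists, rose in 18 and fell in 7 of 31 (median 0.24). Tenascin C (Tnc), an anti-adhesive glycoprotein, had 0.363, 0.215 and 0.396 CPM in vector and 10, 8.09 and 8.69 in WT, 26.9-fold higher (log2 fold change 4.75, SE 0.22, edgeR adjusted p = 1.59e-13). Tgfbi, a secreted integrin ligand, had 0.302, 0.154 and 0.396 CPM in vector and 9.99, 8.8 and 9.26 in WT, 31.8-fold higher (log2 fold change 4.99, SE 0.19, edgeR adjusted p = 3.9e-15). The metalloproteinase inhibitor Timp3 had 3, 8 and 10 counts in the vector libraries and 258, 273 and 213 in WT, too few in vector for a ratio. All 3 went from near the floor to 7.58 CPM or more in every WT library.

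Other rises in the matrix lists began from a measurable level. The syndecan Sdc3 had 15, 15.8 and 14.6 CPM in vector and 100, 86.9 and 94.4 in WT, 6.19-fold higher (log2 fold change 2.63, SE 0.08, edgeR adjusted p = 8.38e-17). The collagen chain Col5a1 had 49.7, 45.2 and 50.7 CPM in vector and 143, 141 and 144 in WT, 2.94-fold higher (log2 fold change 1.56, SE 0.06, edgeR adjusted p = 6.05e-15). Col6a1 (4.64-fold), Col16a1 (8.78-fold) and Col8a1 (2.63-fold) rose as well, and so did the metalloprotease Adam12 (4.52-fold). Fibronectin (Fn1) rose 1.18-fold with overlapping libraries, a call lost without vector replicate 3 (edgeR adjusted p = 0.0599). Col4a1 was not called at 705 ± 40 and 670.2 ± 30 CPM.

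Some falls in the same lists were of similar size. Versican (Vcan), a hyaluronan-binding proteoglycan, had 41.6, 46.4 and 33.7 CPM in vector and 1.7, 1.16 and 0.997 in WT, 31.6-fold lower (log2 fold change -4.98, SE 0.16, edgeR adjusted p = 2.65e-16). The latent TGF-beta binding protein gene Ltbp2 had 6.93, 7.38 and 7.84 CPM in vector and 0.624, 0.736 and 0.392 in WT, 12.4-fold lower (log2 fold change -3.63, SE 0.2, edgeR adjusted p = 2.8e-12). The matricellular gene Ctgf had 165, 175 and 161 CPM in vector and 60.7, 63.4 and 57.2 in WT, 2.76-fold lower (log2 fold change -1.47, SE 0.06, edgeR adjusted p = 7.03e-15). These 3 genes, often listed as mesenchymal or as TGF-beta targets, were thus lower in every WT library. Of the collagen crosslinkers, Loxl3 rose 2.9-fold and Loxl2 fell 2.15-fold. Adam8 fell 10.4-fold and Mmp28 2.15-fold.

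**Figure D3:**
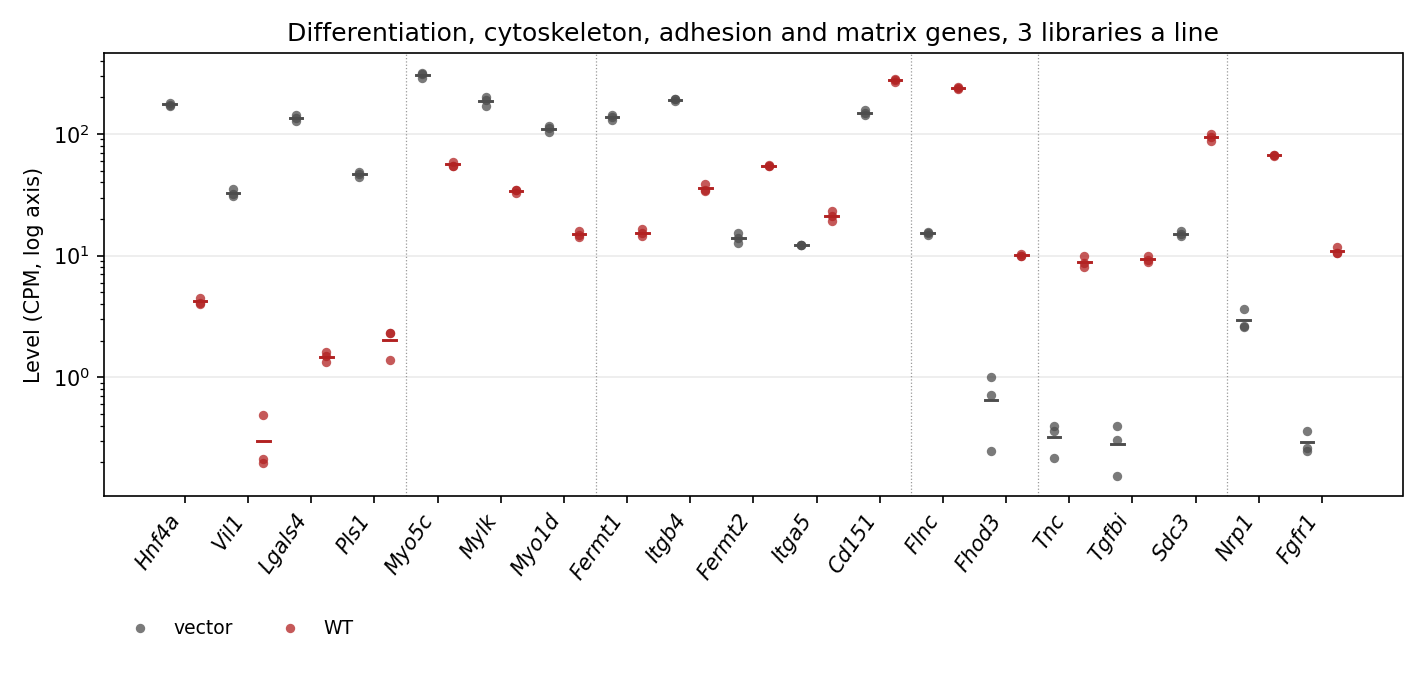
Level in CPM on a log axis of 19 genes of differentiation, cytoskeleton, cell-matrix adhesion and matrix in the 3 vector libraries (grey) and the 3 WT libraries (red), with a bar at each mean; dotted lines part the groups. Kindlin-1 (Fermt1) falls to 15.4 CPM while kindlin-2 (Fermt2) rises to 54.9, and no gene shown has overlapping libraries.

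Other transcription factors of the transition changed in both directions. Of 38 such genes 16 rose and 10 fell (median 0.07). Its paralogue Zeb2 had 42.2, 50.8 and 44.2 CPM in vector and 70.8, 74.4 and 71.6 in WT, 1.58-fold higher (log2 fold change 0.66, SE 0.06, edgeR adjusted p = 8.95e-09). Snai2 had 7.56, 6.52 and 6.84 CPM in vector and 11.5, 11.1 and 10.8 in WT, 1.6-fold higher (log2 fold change 0.68, SE 0.11, edgeR adjusted p = 1.12e-05). Twist1 stayed low, at 0.575, 0.646 and 0.264 CPM in vector and 2.01, 2.35 and 2.53 in WT, and rose 4.69-fold (edgeR adjusted p = 8.52e-07). Snai1 was under 1 CPM in all 6 libraries and was not called (edgeR adjusted p = 0.0793), although a fit of the 6 libraries alone called it lower (0.0457). The AP-1 subunit Fosl1 rose 1.94-fold, from 58.3 ± 1.4 to 113 ± 5.5 CPM, while Foxq1 fell 2.62-fold, Ets2 2.21-fold and Runx1 1.77-fold. The NuRD and corepressor list, which holds partners through which ZEB1 can repress, rose in 14 and fell in 7 of 27, mostly by little; its highest rise was Mta3, a NuRD subunit, from 19.3 ± 0.75 to 44.6 ± 0.93 CPM (2.31-fold).

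Ligands and receptors changed in both directions. In the WNT list 10 of 33 rose (6 where at least 5 CPM was required, with fewer tested) and 18 fell. Wnt5a, a ligand of the branch without beta-catenin, had 0.454, 0.369 and 0.317 CPM in vector and 23.9, 23.8 and 24.8 in WT, 63.4-fold higher. Wnt7a had 7.5, 7.2 and 7.74 CPM in vector and 1.63, 1.58 and 0.997 in WT, 5.27-fold lower (log2 fold change -2.4, SE 0.17, edgeR adjusted p = 1.35e-10), and Wnt4 fell 2.7-fold. Of the 6 WNT ligands tested, Wnt5a, Wnt9a and Wnt10b rose and Wnt4, Wnt7a and Wnt7b fell. Of the machinery that releases WNTs, the acyltransferase Porcn fell 2.63-fold and the carrier Wls rose 1.47-fold. The receptor-degrading ligase Rnf43 fell 3.84-fold and the receptor Fzd4 rose 1.67-fold.

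Among growth factor receptors Fgfr1 rose and 2 ERBB receptors fell. Of 43 genes of the EGF and receptor tyrosine kinase list 14 rose and 16 fell. Fgfr1 had 0.363, 0.246 and 0.264 CPM in vector and 11.8, 10.5 and 10.5 in WT, 37-fold higher (log2 fold change 5.21, SE 0.19, edgeR adjusted p = 2.01e-15). Erbb3 had 99.7, 108 and 99.8 CPM in vector and 31.2, 26.9 and 30 in WT, 3.49-fold lower (log2 fold change -1.8, SE 0.06, edgeR adjusted p = 1.54e-15), and Egfr fell 3.43-fold. The adaptor Grb7, which binds ERBB receptors, had 63.8, 65 and 61.6 CPM in vector and 3.64, 1.67 and 2.46 in WT, 24.9-fold lower (log2 fold change -4.64, SE 0.14, edgeR adjusted p = 1.47e-16). Fgfr1 and Erbb3 therefore separate the lines in opposite directions. The ligand Fgf1 fell 12.8-fold and the EGF-family ligand betacellulin (Btc) rose 2.03-fold. Met fell 2.12-fold but stayed at 393 ± 5.8 CPM, and Axl, a receptor often raised in mesenchymal cells, rose 1.43-fold to 1080.3 ± 19 CPM. The receptor Igf2r, which clears IGF2 and carries lysosomal enzymes, had 98.9, 96.3 and 91.9 CPM in vector and 8.88, 9.73 and 8.22 in WT, 10.7-fold lower (log2 fold change -3.41, SE 0.06, edgeR adjusted p = 3.75e-20).

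Notch pathway genes fell in 14 of 20 and rose in 2 (Dtx3 and Lfng), with a median of -0.36. Jag2, a Notch ligand, had 43.7, 35.4 and 43.2 CPM in vector and 3.26, 1.24 and 2.28 in WT, 18.4-fold lower (log2 fold change -4.2, SE 0.18, edgeR adjusted p = 4.74e-14). Its relative Jag1 had 174, 174 and 173 CPM in vector and 63.8, 68.1 and 67 in WT, 2.62-fold lower (log2 fold change -1.39, SE 0.05, edgeR adjusted p = 5.86e-16). The transcription factor of the pathway, Rbpj, fell 1.36-fold. Both ligands and the factor they act through were therefore lower in all WT libraries. The count of rises fell to 0 without vector replicate 2, and to 1 without vector replicate 1, WT replicate 1 or WT replicate 3. The glycosyltransferase Lfng, 23.3 ± 1.3 CPM in vector and 27.4 ± 3.5 in WT, was among the calls lost (edgeR adjusted p = 0.073 without vector replicate 2).

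The TGF-beta and BMP list had 18 of 46 genes higher and 16 lower. The co-receptor Tgfbr3 had 408, 453 and 404 counts in the vector libraries and 3, 10 and 11 in WT, too few in WT for a ratio. The signalling receptor Tgfbr1 had 57.4, 61.6 and 58.3 CPM in vector and 106, 110.3 and 109 in WT, 1.83-fold higher (log2 fold change 0.87, SE 0.05, edgeR adjusted p = 3.99e-12). The ligands Tgfb1 (1.6-fold) and Bmp4 (1.63-fold) fell, and Smad4 was not called at 128 ± 2.4 and 124 ± 5.5 CPM. In the Hippo and YAP target list 18 of 31 rose and 9 fell, a count of falls that dropped to 5 without vector replicate 2 or without WT replicate 2. Its named YAP targets parted: Cyr61 rose 1.73-fold and Crim1 1.63-fold, whereas Ctgf fell.

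Guidance genes rose in 16 and fell in 20 of 47, and the largest change was a receptor. Neuropilin-1 (Nrp1), a co-receptor for class 3 semaphorins and VEGF, had 2.57, 2.64 and 3.62 CPM in vector and 67.2, 67.6 and 66.3 in WT, 22.6-fold higher (log2 fold change 4.5, SE 0.1, edgeR adjusted p = 8.73e-19). Its ligand Sema3a had 52.7, 56.1 and 46.1 CPM in vector and 104, 110.2 and 112 in WT, 2.11-fold higher (log2 fold change 1.08, SE 0.06, edgeR adjusted p = 3.85e-12). Receptor and ligand thus rose together without overlap. The receptor Ephb3 rose 6.46-fold and Sema6d 2.68-fold, while Sema4d fell 3.81-fold and Sema6b 2.7-fold.

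Genes of innate immunity were lower in WT. Of 30 interferon-stimulated genes 22 fell and 2 rose (median -0.82), and of 48 cytokine, chemokine and NF-kB genes 31 fell and 10 rose (median -0.51). Ifitm1, a membrane protein that restricts viral entry, had 27.2, 28.6 and 27 CPM in vector and 1.04, 1.08 and 0.783 in WT, 28.2-fold lower (log2 fold change -4.82, SE 0.16, edgeR adjusted p = 3.96e-16). Samd9l, an antiviral growth regulator, had 30.4, 29.6 and 31.3 CPM in vector and 2.6, 3.51 and 3.74 in WT, 9.25-fold lower (log2 fold change -3.21, SE 0.14, edgeR adjusted p = 5.93e-14). The poly-ADP-ribosyl transferase Parp14 fell 8.7-fold and its neighbour in function Dtx3l 2.8-fold. These antiviral genes thus fell by different amounts. The 2 rises were Ifit2 and Parp12.

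Of the secreted factors, the growth factor Csf2 (GM-CSF) had 21.5, 22.8 and 25.1 CPM in vector and 2.84, 2.46 and 3.06 in WT, 8.33-fold lower (log2 fold change -3.06, SE 0.11, edgeR adjusted p = 3.36e-15). The interleukin-1 receptor Il1r1 had 179.9, 183 and 175 CPM in vector and 58.6, 60.6 and 57.7 in WT, 3.04-fold lower (log2 fold change -1.6, SE 0.04, edgeR adjusted p = 3.06e-17). The NF-kB target Birc3 fell 7.42-fold and the chemokine Cxcl1 2.49-fold. Receptor, ligand and target genes of inflammation therefore all had members that fell. The TWEAK receptor Tnfrsf12a rose 2.11-fold and the alarmin Il33 2.83-fold. Antigen presentation genes were split, with 9 of 21 lower and 6 higher: tapasin (Tapbp), which loads peptide onto MHC class I, fell 2.52-fold and the class Ib gene H2-T23 3.39-fold, while the classical class I gene H2-D1 rose 1.34-fold. H2 genes are near-identical copies, so their counts are uncertain.

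Secreted acute-phase and metal-handling genes fell in 12 and rose in 2 (C1ra and Fth1) of 21 (median -1.06). Clusterin (Clu), a secreted chaperone, had 645, 652 and 691 CPM in vector and 144, 142 and 136 in WT, 4.72-fold lower (log2 fold change -2.24, SE 0.04, edgeR adjusted p = 1.1e-19). Metallothionein Mt1 fell 2.84-fold and ceruloplasmin (Cp), a copper carrier, 1.79-fold. The count of falls was 6 where at least 5 CPM was required, with fewer members tested. Ferritin heavy chain (Fth1), which stores iron, rose 1.15-fold to 932 ± 15 CPM.

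**Figure D4:**
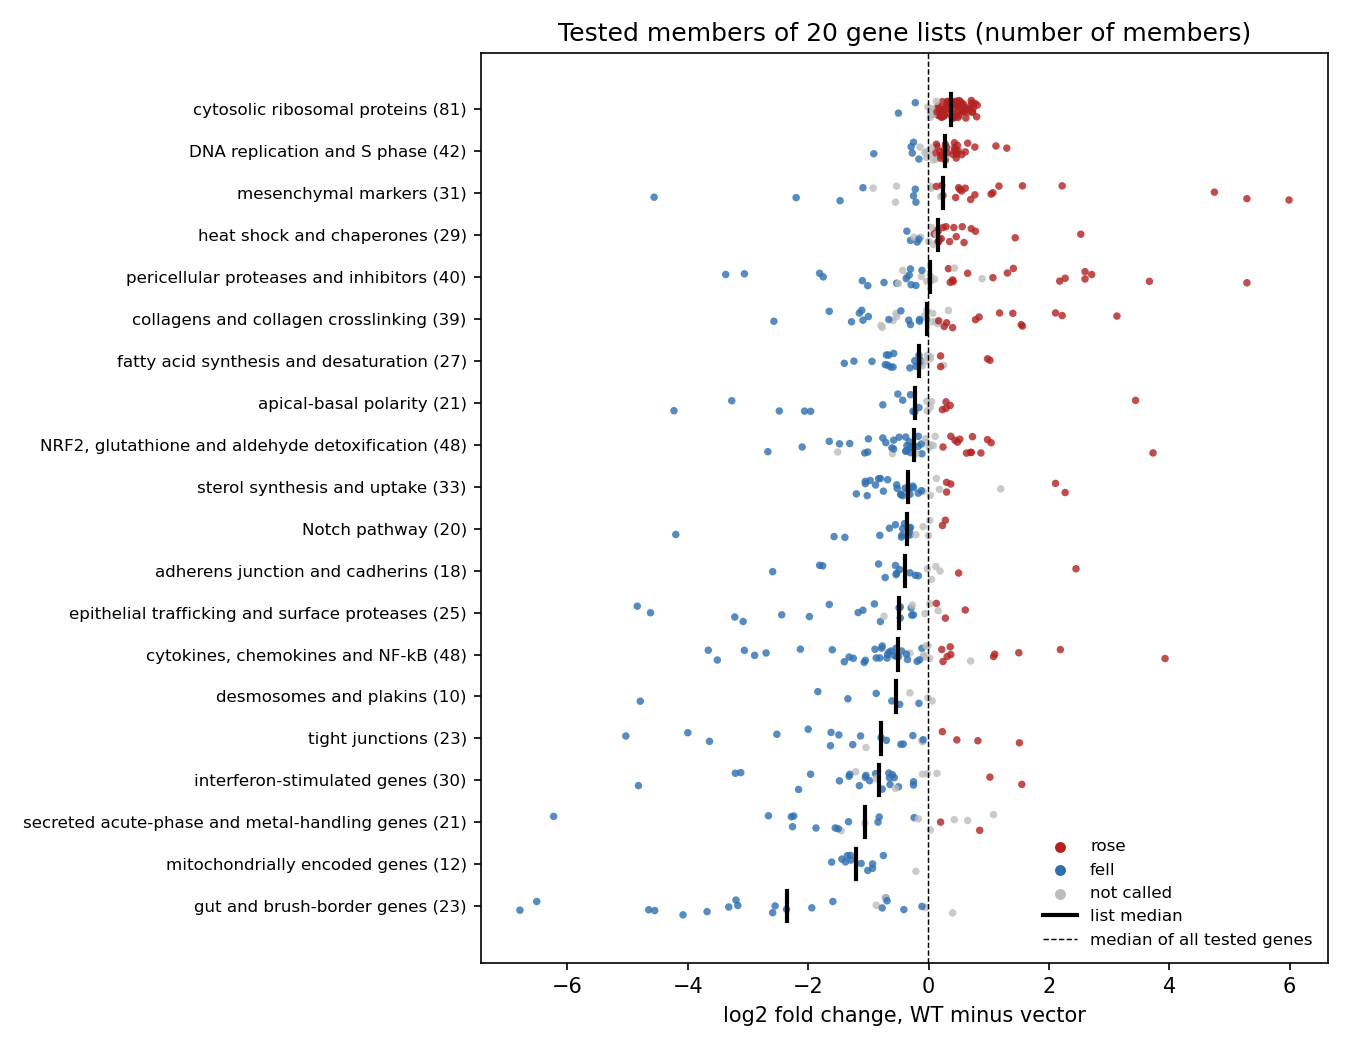
Log2 fold change of WT minus vector for the tested members of 20 gene lists, ordered by list median (black bars) with the number of members in brackets; red members rose, blue fell and grey were not called, and the dashed line is the median of all tested genes, -0.01. Gut and brush-border genes have the lowest median (-2.36) and ribosomal protein genes the highest (0.37), and most lists hold members on both sides.

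Sterol, fatty acid and detoxification genes fell more often than they rose. Of 33 genes that make or take up sterols 23 fell and 5 rose (median -0.34), and of 27 fatty acid genes 17 fell and 4 rose (median -0.16). Squalene synthase (Fdft1), the committed step to sterols, had 93.7, 101 and 103 CPM in vector and 48.9, 47.7 and 47.6 in WT, 2.07-fold lower (log2 fold change -1.05, SE 0.05, edgeR adjusted p = 8.18e-13). The later sterol enzymes Ebp and Hsd17b7 fell 2.08-fold and 2.3-fold. Mevalonate kinase (Mvk) rose 1.23-fold. The other 4 rises were Scap, Mylip and the low Nr1h3 and Abca1. Fdft1, Ebp and Hsd17b7 were named for having some of the largest changes of the list, in which 4 of 33 genes fell at least 2-fold. Among fatty acid genes the elongase Elovl7 fell 2.36-fold and the desaturase Fads2 1.92-fold, and its relative Fads3 rose 2.03-fold, as did Elovl5, Gpam and the low Scd4.

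In the NRF2, glutathione and aldehyde list 26 of 48 fell and 13 rose (median -0.23). The cystine importer Slc7a11 had 301, 313 and 260.3 CPM in vector and 120.4, 119 and 112 in WT, 2.49-fold lower (log2 fold change -1.31, SE 0.06, edgeR adjusted p = 4.48e-14). Aldh1a3, which makes retinoic acid, fell 6.36-fold and the glutathione transferase Gsta4 3.13-fold. The peroxidase Gpx1 had 221, 223 and 251 CPM in vector and 480, 475 and 476 in WT, 2.06-fold higher (log2 fold change 1.04, SE 0.04, edgeR adjusted p = 2.95e-14), and Gpx8 rose 1.97-fold. Slc7a11 and Gsta4 thus fell while the 2 peroxidases rose. The highest log2 fold change of the list, 3.73, was that of a gene not named here, so the named genes do not stand for the list. Asparagine synthetase (Asns), a target of the amino acid response, fell 1.85-fold to 708 ± 9.5 CPM.

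Lactate carriers moved in opposite directions. Slc16a3 (MCT4), the exporter of glycolytic cells, had 2.72, 3.14 and 2.43 CPM in vector and 68.8, 69.6 and 70 in WT. Slc16a1 (MCT1) had 401, 399 and 422 CPM in vector and 212, 206 and 211 in WT, 1.94-fold lower (log2 fold change -0.96, SE 0.04, edgeR adjusted p = 3.69e-14), and so remained above Slc16a3. Within the glycolysis and hypoxia list 16 of 40 fell and 10 rose. The aldolase Aldoc fell 4.99-fold and the kinase Pdk3 rose 3.31-fold.

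Genes of DNA replication rose in 28 and fell in 5 of 42 (median 0.27), and those of mitosis rose in 20 and fell in 14 of 44. Cyclin E2 (Ccne2), which starts S phase with Cdk2, had 28.5, 35.7 and 30.4 CPM in vector and 73.6, 77.8 and 82.2 in WT, 2.47-fold higher (log2 fold change 1.3, SE 0.08, edgeR adjusted p = 1.07e-11). The helicase subunit Mcm2 had 219, 217 and 233 CPM in vector and 385, 379 and 377 in WT, 1.71-fold higher (log2 fold change 0.77, SE 0.04, edgeR adjusted p = 7.15e-13). Cyclin E1 (Ccne1, 2.18-fold) and the reductase subunit Rrm2 (1.57-fold) rose too, while the helicase subunit Mcm3 fell 1.2-fold and the repressor E2f8 1.88-fold; the other 3 falls were Chaf1b, Dtl and Tk1. In mitosis genes Mad2l1 (1.54-fold) and Kif20a (1.48-fold) rose and Cenpf fell 1.4-fold. Growth control genes did not move one way. The inhibitor p27 (Cdkn1b) had 120.3, 114 and 113 CPM in vector and 224, 226 and 227 in WT, 1.95-fold higher (log2 fold change 0.96, SE 0.04, edgeR adjusted p = 3.69e-14), p21 (Cdkn1a) fell 1.48-fold, cyclin D2 (Ccnd2) 1.79-fold and Cdk6 1.61-fold. No cell counts or growth rates are given in the sources used here.

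Chaperone genes rose in 18 and fell in 4 of 29, with the collagen chaperone Serpinh1 1.71-fold and Dnajb1 1.64-fold higher and mitochondrial Hspa9 1.29-fold lower; Cct8, Dnajb4 and Hspd1 were the other falls. The make-up of the RNA also moved with the line. Ribosomal protein genes rose in 70 and fell in 2 of 81 (Rpl7 and Rpl22l1), and their share of counts was 5.02 to 5.58% in vector and 6.95 to 7% in WT. Mitochondrially encoded genes fell in 11 of 12, with a share of 0.814 to 0.998% in vector and 0.396 to 0.426% in WT; mt-Co1, a cytochrome oxidase subunit, fell 2.44-fold. A fit without these genes and without satellite-containing gene models, added after seeing the data, called 590 genes at least 2-fold higher and 883 lower, and 98.2% of the genes called in the full table were called in the same direction. Whether RNA make-up has a part in the small changes above was not tested further.

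WT was then set against the lines with the other Zeb1 forms. The comparisons with deficient and mimetic share the WT libraries with each other and with the comparison above, so their values are given side by side. Apart from Mctp1 and Mdga1, the genes below were named for their change between WT and vector. That WT is an extreme line for them was therefore partly set by the choice, and no rule set which of them are shown here. WT was at least 2-fold below the deficient line for 875 genes (7.28%) and at least 2-fold above it for 181 (1.5%). Against the mimetic line the counts were 576 (4.79%) and 99 (0.823%). In the same tests with no fold minimum, 27.5% of genes were lower and 26.3% higher in WT than in deficient, and 23.1% and 21.8% than in mimetic. That near balance depends on the scaling: with library size only, 3597 genes were lower and 2793 higher than in deficient, and 3506 and 1980 than in mimetic. Of the 23 tight junction genes 13 were lower in WT than in deficient and 3 higher, and 13 were lower than in mimetic and 4 higher. Of the 42 replication genes 35 were higher in WT than in deficient and 1 lower, and 12 were higher than in mimetic and 3 lower.

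Several junction and cytoskeleton genes that fell in WT stood near the vector level in the deficient line. Prkcz was at 21.5, 21 and 22.9 CPM in deficient and 8.93, 7.17 and 9.63 in mimetic, 17.7-fold and 6.97-fold above WT (edgeR adjusted p = 4.19e-15 and 1.54e-11). Dsp was at 145, 148 and 141 and 59.5, 63.4 and 62.4 CPM, 36.1-fold and 15.4-fold above WT (edgeR adjusted p = 8.2e-22 and 1.31e-19). Myh14 was at 35.9, 35.7 and 45 and 9.21, 8.81 and 10.7 CPM, 11.7-fold and 2.89-fold above WT (edgeR adjusted p = 8.89e-16 and 4.7e-09). For these 3 genes WT had the lowest mean and mimetic the next, and the libraries of WT and mimetic did not overlap. For Csf2 the mimetic mean was 3.67 ± 0.33 CPM, above the 2.79 ± 0.3 of WT by 1.32-fold (edgeR adjusted p = 0.0217), and the deficient mean was 21.9 ± 1.3.

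Some genes low in WT stood well above it in both other lines. Igf2r was at 85, 81.6 and 84.4 CPM in deficient and 114, 115 and 113 in mimetic, 9.31-fold and 12.7-fold above WT (edgeR adjusted p = 2.8e-19 and 8.72e-20). Ctgf was at 190.4, 177 and 175 and 143, 149 and 129 CPM, 2.99-fold and 2.32-fold above WT (edgeR adjusted p = 6.22e-15 and 1.15e-12). Loxl2 was at 33.9 ± 1.2 CPM in mimetic and 34.8 ± 2.2 in deficient, against 33.9 ± 1.3 in vector and 15.7 ± 0.91 in WT (edgeR adjusted p = 2.05e-10 and 4.7e-11 against WT). Vcan was at 35.7 ± 3.9 CPM in mimetic and 20.1 ± 1.2 in deficient, against 1.29 ± 0.37 in WT (edgeR adjusted p = 4.46e-15 and 5.77e-14 against WT). The WT libraries are the lowest of the 12 for each of these 4 genes.

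Some genes that rose in WT stood above both other Zeb1 lines. Wnt5a was at 3.32, 2.64 and 2.7 CPM in deficient and 4.63, 3.25 and 3.65 in mimetic, 8.36-fold and 6.31-fold below WT (edgeR adjusted p = 1.05e-13 and 1.83e-12). The membrane calcium sensor gene Mctp1, named after its values were seen, had 20.4, 21.2 and 18.2 CPM in vector and 95.7, 90.5 and 88 in WT, 4.58-fold higher (log2 fold change 2.2, SE 0.08, edgeR adjusted p = 9.42e-16). It was at 8.33 ± 0.98 CPM in deficient and 15.5 ± 0.32 in mimetic, both below vector. Mdga1, a membrane-anchored adhesion protein named in the same way, had 2.87, 2.28 and 3.54 CPM in vector and 12.5, 11.2 and 14.2 in WT, 4.33-fold higher (log2 fold change 2.12, SE 0.17, edgeR adjusted p = 7.07e-10), and means of 0.707 ± 0.14 CPM in deficient and 0.513 ± 0.12 in mimetic. In each of the 3 genes every WT library lies above every other library. Other changes were not told apart between the Zeb1 lines: Mta3 had edgeR adjusted p = 0.577 against deficient and 0.804 against mimetic, and Ephb3 had 0.207 and 0.355.

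**Figure D5:**
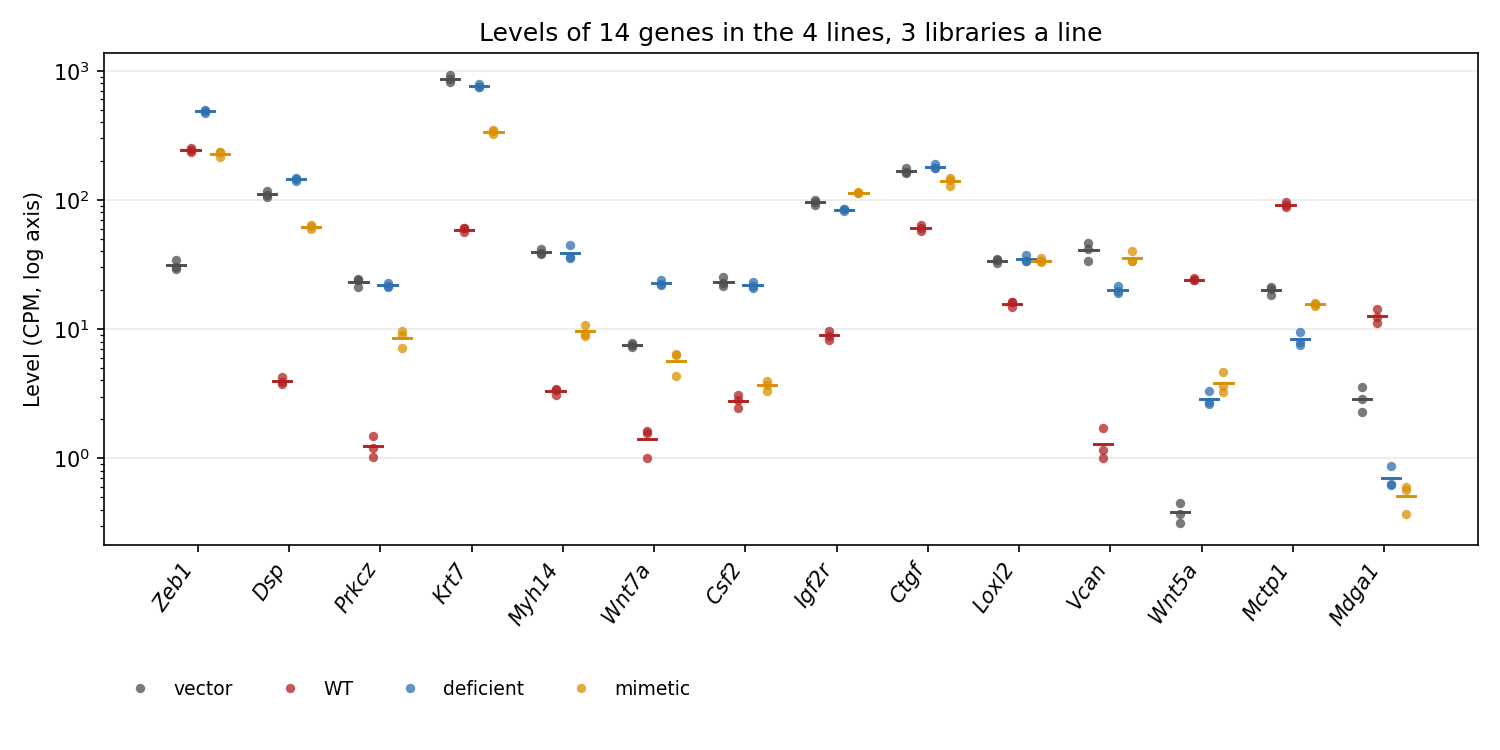
Level in CPM on a log axis of 14 genes in the 3 libraries of each of the 4 lines, vector (grey), WT (red), deficient (blue) and mimetic (orange), with a bar at each mean. WT is the lowest line for Dsp through Vcan and the highest for Wnt5a, Mctp1 and Mdga1, while Zeb1 itself is highest in deficient.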

How the data were processed

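RNA of the 12 libraries was prepared with a QuantSeq 3' FWD kit, per the labels' protocols, and STAR and the build mm10 are named in the submitters' processing notes. Which versions, counter and annotation were used is not given in the sources used here. Raw read counts per gene were deposited by the authors in 1 table of 12208 genes, each with a count of 1 or more in every library. Of the 12208 IDs 12195 matched GENCODE (GRCm38), which gave coordinates. Promoter windows came from RefSeq (GRCm38.p6), were joined by gene name and covered 9420 of the 12027 tested genes.

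From the counts, a quasi-likelihood model was fitted with edgeR 4.0.16 in R 4.3.3 over all 12 libraries with 1 coefficient per line, after filterByExpr (181 genes removed) and TMM scaling. Contrasts were WT minus vector, deficient and mimetic, with Benjamini-Hochberg adjustment over 12027 genes and calls at adjusted p under 0.05. Each SE is the absolute log2 fold change over the root of F. No fold is given for a gene with 3 counts or fewer in a library. The fit was tried on counts simulated from its own model, with few genes changed and the same spread in all lines. That trial does not cover changes as widespread as those here, nor unequal spread between lines.

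Genes were named by a rule: Zeb1, related factors and classical markers; from each list up to 5 called members with the largest change (at least 5 CPM, no overlap), up to 2 in the other direction and the most abundant member not called; and the 20 largest changes per direction (at least 10 CPM). Mctp1, Mdga1, Cldn9, Egfr, Met, Cdx2, Crb3, Cgn, Axl and Tgfbr1, the Ocln and Lsr promoters, and members named only to complete a count of 5 or fewer were chosen after their values were seen. The members and lists were chosen with earlier results of these data known.

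Alternatives tried were RLE factors, library size only, no filter, at least 5 CPM in 3 libraries, DESeq2 1.42.0, limma-voom (limma 3.58.1), the 6 libraries alone, a replicate block, a 2-fold minimum (glmTreat), leaving out each library, the shorter motif CACCT or AGGTG, and a fit without mitochondrial, ribosomal protein and satellite-containing genes, which was added after seeing the data.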

Additional observations from a re-analysis of the deposited data

How the results depend on the processing

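Against vector, the counts of genes higher and lower in WT lay between 3350 and 3892 and between 3575 and 4072 under all alternatives except a 2-fold minimum (glmTreat), and no gene called in both ways changed direction in any of them. Leaving out 1 library gave 3413 to 3783 genes higher and 3723 to 4055 lower, with 570 to 591 higher and 852 to 966 lower by at least 2-fold. With the 2-fold minimum built into the test, 337 genes were higher and 541 lower than in vector, 64 and 401 against deficient, and 29 and 247 against mimetic. Requiring 5 CPM in 3 libraries left fewer genes tested, and at least 2-fold changes were then 311 higher and 514 lower against vector, 92 and 392 against deficient, and 45 and 246 against mimetic. Of 194 called genes given with values in the text or figures all but Vim, Fn1 and Lfng kept their call in each of the 15 settings, other than the 2-fold minimum, that tested them; a few low genes and mt-Co1 were not tested in all. Lfng had edgeR adjusted p = 0.0739 without vector replicate 1, 0.073 without vector replicate 2 and 0.199 without WT replicate 1. Among genes described as not called, Myh9 was called lower without vector replicate 3 (edgeR adjusted p = 0.0259) and in the fit of the 6 libraries (0.00635), and Itgav higher without vector replicate 2 (0.021) and by library size only (0.0473). With the shorter motif, 82.4% of windows of tight junction genes that fell held a match, against 51.9% of all mouse windows. For the polarity genes that fell the share was 66.7% (95% Wilson interval 45.4 to 82.8), and that interval holds the 51.9%.

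Same-numbered libraries of WT and vector correlated in their deviations at 0.06, 0.24 and 0.14, so the numbers were not taken to pair them, although every library correlated best with its own number. A replicate block gave 3780 genes higher and 4072 lower (580 and 903 at least 2-fold), and also called Myh9, Itgav and Foxa2. Pairs of vector libraries differed more than pairs of WT libraries, with a mean chi-square per gene of 6.23 to 21.2 against 2.96 to 4.33. The model nevertheless gives each gene 1 spread for all lines. Depth limits the genes near the floor, where a few counts set the ratio, and with 1 line per Zeb1 form the spread between lines of the same form was not measured.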

Other observations

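Transporters and neural genes gave further values. Of 207 solute carrier genes tested 76 fell and 61 rose. The sulfate transporter Slc26a2 had 289, 298 and 246 CPM in vector and 26.6, 27.1 and 28.8 in WT, 10.1-fold lower (log2 fold change -3.34, SE 0.07, edgeR adjusted p = 1.31e-19). Of 320 genes with Zfp names, which are mostly zinc-finger factors, 83 fell, 81 rose and 156 were not called, with a median of 0 and a share of calls below that of all tested genes; no test of that difference was made. Neural adhesion and cytoskeleton genes rose in 10 (6 where at least 5 CPM was required) and fell in 11 of 25. The microtubule gene Map2 had 0.786, 1.45 and 0.871 CPM in vector and 12, 13.9 and 13 in WT, 12.6-fold higher (log2 fold change 3.65, SE 0.18, edgeR adjusted p = 4.42e-13), and neuronal tubulin (Tubb3) rose 3.68-fold, whereas the adhesion molecule Ncam1 fell 23.6-fold. Among 20 S100 proteins and annexins 11 fell and 5 rose (Anxa3, Anxa6, Anxa8, Anxa9 and S100a10), and the 5 became 3 without vector replicate 1, WT replicate 1 or WT replicate 2.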
